A study of Mus musculus with 12 samples.

Results

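The interaction of dihydrotestosterone (DHT) with the culture medium was examined in M2-10B4 cells, an established stromal cell line from mouse bone marrow of a C57BL/6J X C3H/HeJ background. The question addressed is whether a gene responds to the androgen differently once the cells are driven toward fat cells. Members were the genes with a mean of at least 5 FPKM (fragments normalised to transcript length and to the library's total) in control or DHT cells and also in ADM or ADM+DHT cells, which left 6489 of the 11582 genes with values in all 12 libraries. The rule asks for that level in 1 group of each medium, so a member can still be low in the other. Such members, of which 265 were below 5 FPKM in control, 95 with DHT, 202 in ADM and 136 in ADM+DHT, passed through the group where they are high, so a difference between the groups helped to admit them. The counts below, over all members and over gene lists, include them. In all, 134 members would fall below the limit in a medium on leaving out some 1 of the 12 libraries. Just inside the limit lay Gabpb2 and Snx16 at 5.001 and 5.003 FPKM, and just outside it Ints6l, Zfp677 and Nmi, each at 4.998 FPKM.

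The 4 groups held 3 libraries each, described as biological triplicates, from cells harvested on day 9. Control cells stayed untreated in a regular medium whose makeup is not stated, and DHT cells had 10 nM DHT in it. ADM cells, confluent when the medium was switched, were in adipogenic medium: phenol red-free RPMI with 10% charcoal-stripped serum, 2 µg/mL insulin, 1 µM dexamethasone and 2 µM rosiglitazone. ADM+DHT cells had 10 nM DHT in addition to all of these. The groups are cultures of a single cell line, and whether the serum of the regular medium was charcoal-stripped is also not stated, so steroids of the serum cannot be told apart from the other differences between the media.

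DHT is an androgen, a steroid hormone that acts on gene transcription. Dexamethasone binds the glucocorticoid receptor, a transcription factor of the steroid receptor family, and many genes are known to respond to androgens and glucocorticoids alike. Rosiglitazone activates PPAR gamma, the receptor that drives fat cell genes, while insulin promotes glucose uptake and lipid storage. Androgens are known to restrain the formation of fat cells from stromal precursors. In the comparison used here, the DHT difference is the mean log2(FPKM + 1) with DHT minus that without it, in 1 medium, and the interaction is the DHT difference in adipogenic medium minus that in regular medium. A positive interaction means a higher DHT difference in adipogenic medium. Where a pair of DHT differences is given for a gene, that in regular medium comes first.

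The deposited tables hold FPKM without counts, so sequencing depth is unknown, and precision rests on the 3 libraries of a group. FPKM summed to between 240492 and 262738 per library. The 13 mitochondrially encoded genes took 9.57% ± 0.342 of that sum in control (SD, n = 3), 10.2% ± 0.45 with DHT, 16.8% ± 0.418 in ADM and 13.6% ± 0.313 in ADM+DHT. The stromal markers Pdgfra, Pdgfrb, Col1a1, Col1a2, Cxcl12 and Vcam1 were each above 20 FPKM in every library, with Vcam1 lowest at 20.2. Thy1, also chosen as a stromal marker, was not in the joined tables. Ptprc, Pecam1 and Cdh5, chosen as markers that such cells should lack, were not in them either. Of 16 macrophage and haematopoietic markers 6 were in the joined tables, with a summed level of 22.3 to 25.0 FPKM in control, 14.5 to 18.0 with DHT, 13.9 to 17.0 in ADM and 12.5 to 14.5 in ADM+DHT. Of 14 endothelial markers 2 were present, with a summed level of 0.691 to 0.745 FPKM in control, 1.45 to 1.85 with DHT, 1.71 to 2.00 in ADM and 2.20 to 2.46 in ADM+DHT. Of 20 skeletal muscle markers 5 were present, at 16.3 to 20.7, 13.7 to 15.3, 13.5 to 16.0 and 14.8 to 15.4 FPKM in the same order. Of these 3 lists only Tnnt1, a muscle troponin gene, was a member, and of the brown and beige fat list only Slc29a1, and neither had a called interaction. Their part in the results was not tested. In bulk RNA, fewer cells of a type and less RNA per cell cannot be told apart.

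DHT changed a large share of the members by different amounts in the 2 media. The interaction passed the test (limma, Benjamini-Hochberg adjusted p below 0.05, termed called below) for 1847 of the 6489 members, or 28.5%, beside 25.4% of all 11152 genes tested. It was positive for 971 members, with 12.5% of all tested genes called higher, and negative for 876, with 12.9% of all tested genes called lower. At 1.5-fold or more it was positive for 223 (3.44%) and negative for 300 (4.62%), lower shares than the 3.89% and 5.5% of all tested genes. The median interaction of the members was 0.02 on the log2(FPKM + 1) scale, its 5th and 95th percentiles were -0.59 and 0.54, and its median standard error was 0.0932. Of the 1493 members with an interaction between 0.25 and 0.5 in size, 951 were called, and of the 160 at 1 or more, 140 were. The shares of 28.5% of members and 25.4% of tested genes are the background for the list counts below.

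In regular medium DHT raised 1070 members and lowered 1021, against 14.2% and 14.9% of all tested genes and 29.2% in either direction. In adipogenic medium it raised 1497 and lowered 1133, against 18.2% and 17.1% of all tested genes and 35.3% in either direction. Over the 6489 members the 2 DHT differences, which share no library, had a Pearson r of 0.387 and a Spearman rho of 0.332, a description across genes, which are not independent replicates. The libraries of DHT and control did not overlap for 2953 members (45.5%), beside 42.8% of all tested genes, and those of ADM+DHT and ADM for 3418 (52.7%), beside 47.4%.

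Of the 1246 members that DHT changed in both media, 975 moved the same way, 588 up and 387 down, and the interaction was called for 356 of these. The other 271 moved in opposite directions. Among them, 175 fell with DHT in regular medium and rose with it in adipogenic medium, where 2.07% of all tested genes did so, and 96 rose in regular medium and fell in adipogenic medium, where 1.41% of all tested genes did so. Of the members with a called interaction, 760 (11.7% of members) were changed by DHT in adipogenic medium alone and 400 (6.16%) in regular medium alone, shares near the 10.6% and 6.32% of all tested genes. Same-direction rises were larger in adipogenic medium for 127 members (1.96%) and smaller for 84 (1.29%), beside 1.37% and 0.924% of all tested genes. Falls were larger for 116 (1.79%) and smaller for 29 (0.447%), beside 1.31% and 0.538%. The remaining 60 (0.925%, beside 0.879%) were changed in neither medium taken alone.

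**Figure D1:**
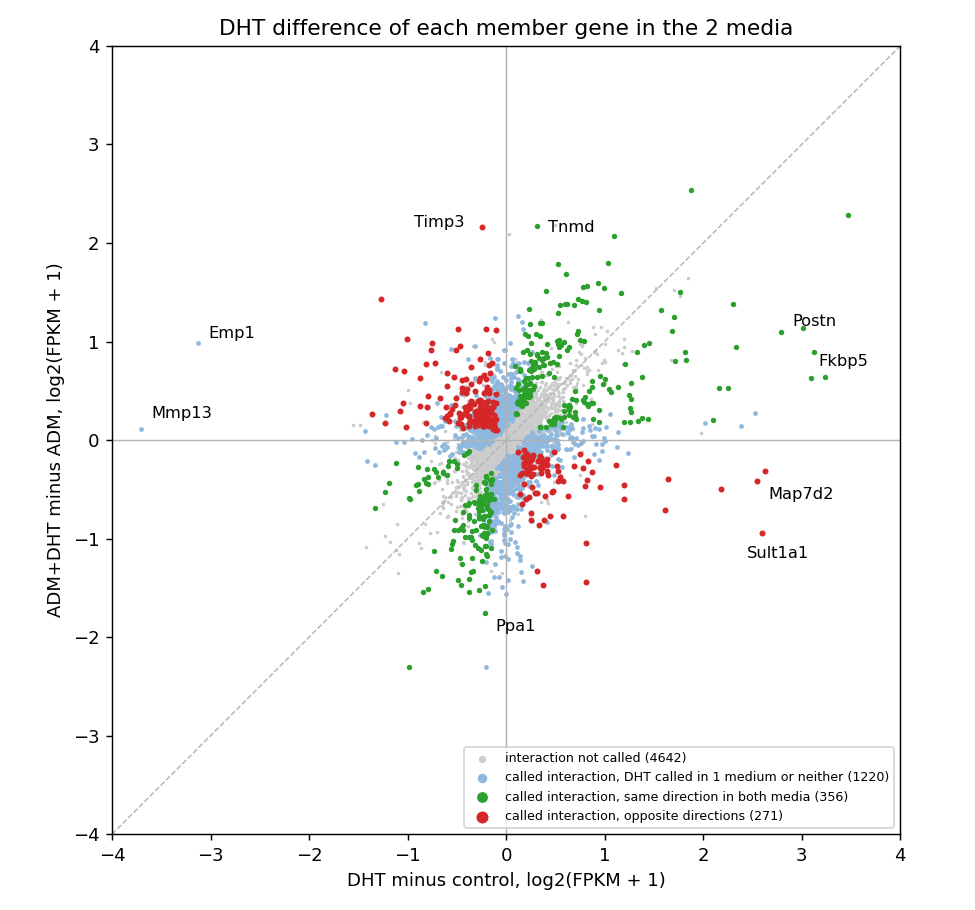
Each point is a member gene, with its DHT difference in regular medium (x axis) and in adipogenic medium (y axis), both on the log2(FPKM + 1) scale. The dashed diagonal marks equal differences. The 271 red points were changed in opposite directions, and Mmp13, Emp1, Sult1a1 and Timp3 lie far from the diagonal.

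**Figure D2:**
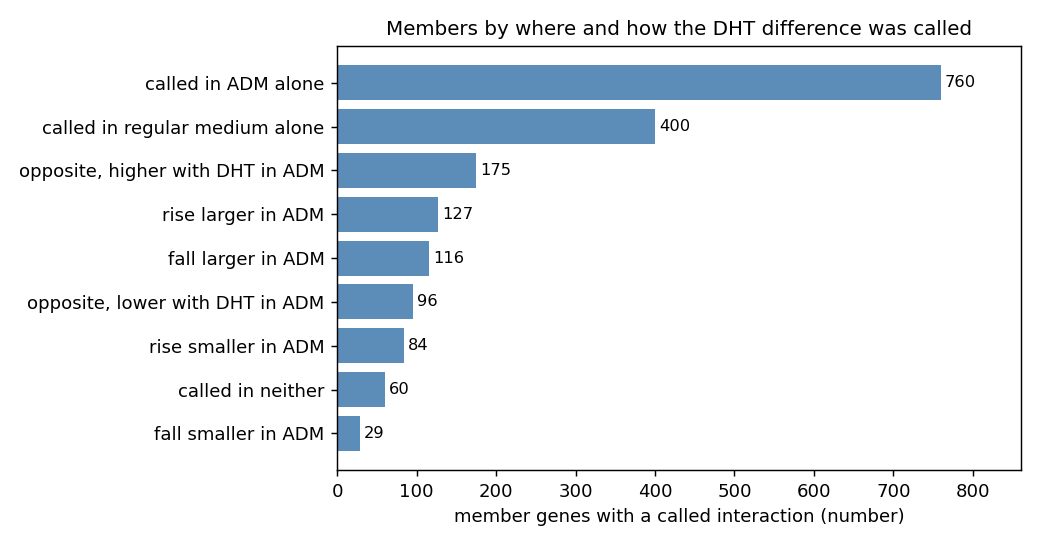
Bars give the number of members with a called interaction in each of 9 classes, set by whether DHT passed the test in a medium and in which direction. The largest class, 760 members, was changed by DHT in adipogenic medium alone.

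The 6 most negative interactions are described here as levels. All 6 genes were below 5 FPKM in control and became members in regular medium through their level with DHT, so their rise there is a consequence of the rule and no finding. Sult1a1 (GRCm38 chr7:126672865-126676432, minus strand), which encodes a cytosolic sulfotransferase of phenols, had the most negative value. The FPKM of Sult1a1 was 0.855, 0.679 and 0.829 in the control libraries, 9.19, 10.0 and 10.1 with DHT, 162, 163 and 168 in ADM and 83.6, 85.2 and 86.3 in ADM+DHT. All 4 groups were apart from each other, and the gene rose with DHT in regular medium but fell with it in adipogenic medium. The DHT difference was 2.59 ± 0.049 in regular medium (SE) and -0.94 ± 0.049 in adipogenic medium, an interaction of -3.54. That value includes the rise in regular medium that the rule favoured, so no p-value is given with it.

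The RefSeq promoter window of Sult1a1 (GRCm38.p6, chr7:126676369-126676668, minus strand, 250 bases before to 50 bases after the start) is shown because steroid receptors are known to bind pairs of a hexamer, AGAACA or its reverse complement TGTTCT. Capitals mark each match to either, 212 and 34 bases before the start. These are separate single hexamers, and binding to them was not tested.

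Sult1a1: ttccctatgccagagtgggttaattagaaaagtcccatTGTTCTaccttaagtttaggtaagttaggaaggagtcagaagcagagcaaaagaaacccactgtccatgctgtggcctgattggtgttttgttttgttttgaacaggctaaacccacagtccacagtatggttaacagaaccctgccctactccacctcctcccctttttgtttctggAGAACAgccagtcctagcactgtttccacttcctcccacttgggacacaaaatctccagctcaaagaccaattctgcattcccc

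The FPKM of Fkbp5 was 4.46, 3.92 and 4.61 in the control libraries, 49.9, 50.8 and 47.0 with DHT, 116, 115 and 119 in ADM and 180.1, 188 and 182 in ADM+DHT. Fkbp5 (GRCm38 chr17:28399095-28517524, minus strand), which encodes a co-chaperone of steroid receptors and is a classical target of both androgens and glucocorticoids, was lowest in control and highest in ADM+DHT, with no overlap between groups. Its level with DHT was 11.4-fold that of control in regular medium and 1.57-fold that of ADM in adipogenic medium. The interaction was -2.59 ± 0.070, which likewise includes the rise that the rule favoured. Its RefSeq window holds neither hexamer. Nor do those of Glul, Mmp13 and Timp3, while that of Cyp2f2, whose interaction was positive, does. The FPKM of Glul was 5.09, 4.88 and 5.37 in the control libraries, 18.2, 17.1 and 18.9 with DHT, 194, 189 and 200.5 in ADM and 154, 145 and 142 in ADM+DHT. Glul, encoding glutamine synthetase, thus rose with DHT from a low level and fell with it from a high one, and its interaction was -2.04. Map7d2, a microtubule-associated protein gene, went from 0.149 ± 0.0621 FPKM in control to 5.74 ± 0.697 with DHT (SD, n = 3) and from 39.96 ± 0.667 in ADM to 29.8 ± 0.778 in ADM+DHT. Its interaction of -2.96 depends on the pseudocount, since its control level is under 1 FPKM: it was -5.00 with 0.1 and -1.86 with 3 in place of 1.

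Fam107a, an actin-associated stress protein gene induced by glucocorticoids, had means of 3.47 FPKM in control, 19.2 with DHT, 139 in ADM and 98.8 in ADM+DHT, and an interaction of -2.68. Aldh1a7, an aldehyde dehydrogenase gene, had an interaction of -2.94, with DHT differences of 2.63 and -0.31; its reads could be shared with the close paralogue Aldh1a1, for which the interaction was -0.79. Ctla2a, encoding a cysteine protease inhibitor with a close paralogue, rose in both media, by 3.10 and 0.63. Crispld2, a secreted protein gene, rose from 2.11 ± 0.772 to 25.7 ± 1.83 FPKM in regular medium and from 9.80 ± 0.487 to 19.1 ± 0.379 in adipogenic medium, so its level with DHT was higher in regular medium. C4b, complement component 4, which has the near-identical copy C4a, rose by 2.10 and 0.20. Crispld2 and C4b were also below 5 FPKM in control and were members in regular medium through DHT, so the rule favoured their rise there. Hp, encoding the haemoglobin carrier haptoglobin, rose by 1.12 in regular medium and fell by 0.25 in adipogenic medium.

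Known targets shared by glucocorticoids and androgens were raised by DHT mostly in regular medium. Of 31 such members, 17 had a called negative interaction and 5 a positive one, with a median of -0.45 beside 0.02 over all members. DHT raised 25 and lowered 5 of them in regular medium, with a median difference of 0.63, and raised 11 and lowered 8 in adipogenic medium, with a median of 0.04. These counts include members admitted in regular medium through their level with DHT, among them Fkbp5 and Fam107a. For such members the rule favoured the rise there and a negative interaction. Over the whole list the median level relative to control was 0.61 to 0.67 in the DHT libraries, 1.77 to 1.89 in ADM and 1.73 to 1.87 in ADM+DHT. Per1, a clock gene, had means of 6.32 FPKM in control, 11.1 with DHT, 23.02 in ADM and 22.1 in ADM+DHT, and rose in regular medium alone (interaction -0.78, adjusted p = 1.05e-05). The same held for Nfkbia, encoding an inhibitor of NF-kappa B, at 0.61 and -0.09, for Cebpd, a CCAAT-binding factor of early fat cell formation, at 1.13 and -0.07, and for Tsc22d3, encoding the glucocorticoid-induced leucine zipper, at 0.97 and -0.11. Mt2, a metallothionein, rose in both, by 1.34 and 0.19. The positive interactions were those of Ampd3, Dusp1, Klf9, Ndrg1 and Slc26a2. Dusp1, a phosphatase gene, rose by 0.31 in regular medium and by 0.86 in adipogenic medium. Ptgds, encoding prostaglandin D synthase, rose by 4.85 and 4.40, and its interaction of -0.45 was not called (adjusted p = 0.257). Tsc22d3, Ptgds and the 5 positive members lie outside the rule for named genes and were chosen after their values were seen.

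**Figure D3:**
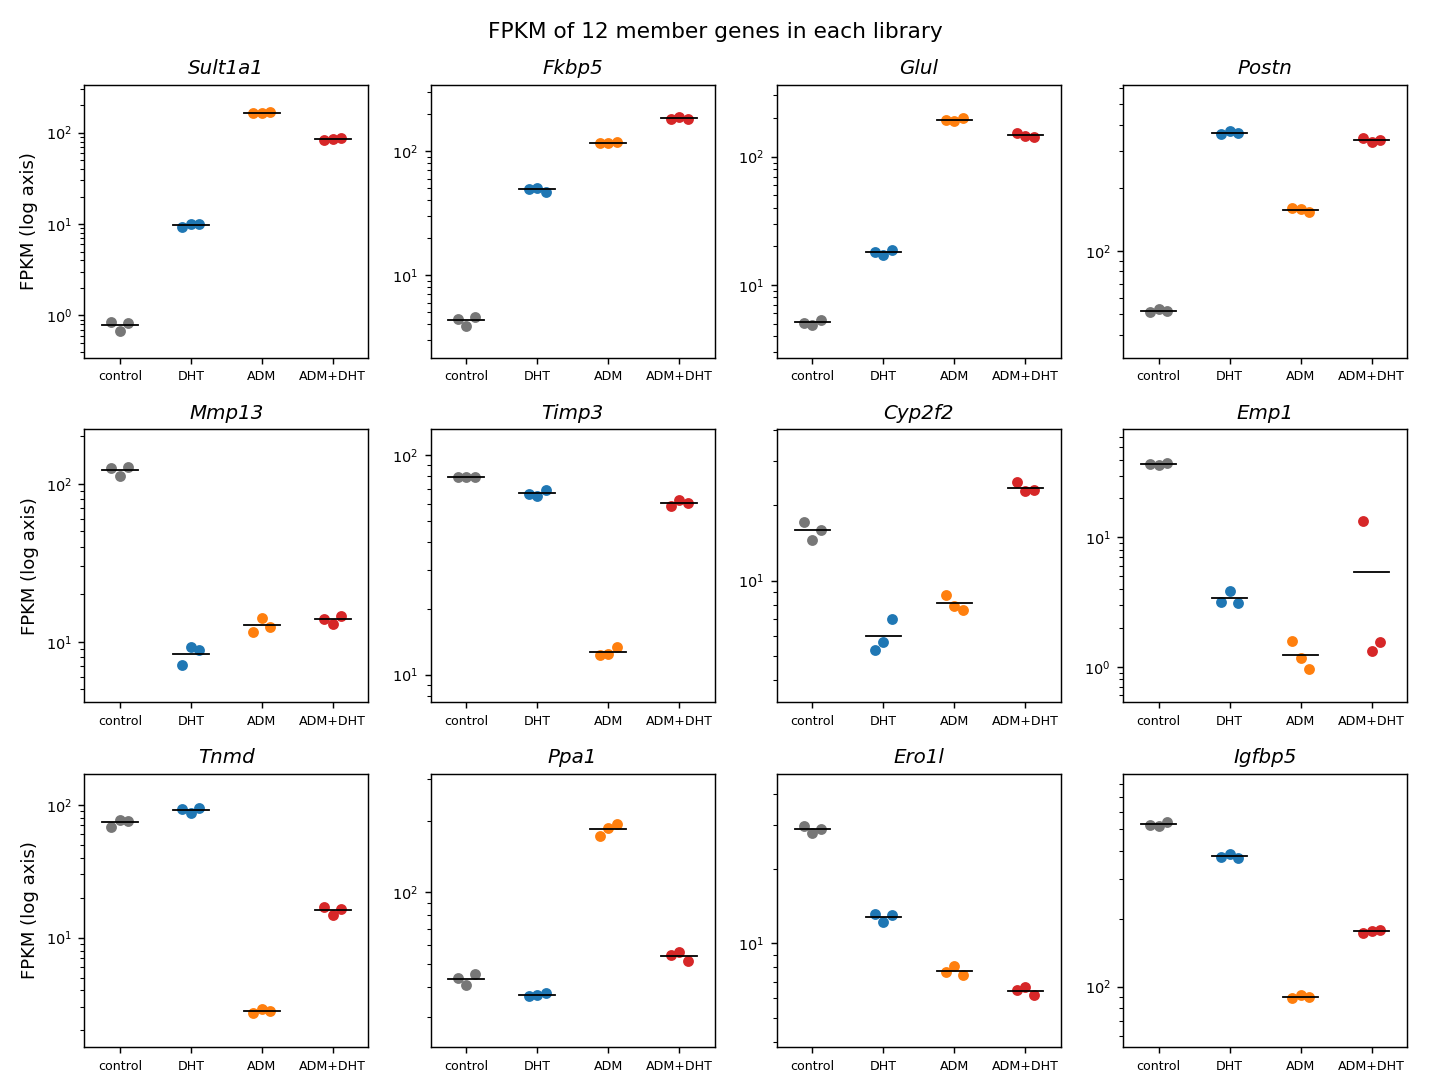
FPKM on a log axis for 12 members, with a point per library and a line at the mean of each group. In the top row the step from control to DHT is larger than that from ADM to ADM+DHT, and Emp1 has 1 ADM+DHT library, at 13.4 FPKM, far above the other 2.

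Most adipocyte identity genes past the 5 FPKM rule in both media fell with DHT in adipogenic medium. The rule keeps few of them, since most are low without adipogenic medium: 10 of the 34 adipocyte identity genes in the tables were members, and 8 had a called negative interaction (median -0.79). DHT raised 2 and lowered 2 of them in regular medium, with a median difference of -0.06, and raised 0 and lowered 8 in adipogenic medium, with a median of -1.10. The FPKM of Pnpla2 was 11.001, 9.83 and 9.31 in the control libraries, 11.6, 11.5 and 11.3 with DHT, 272, 294 and 315 in ADM and 104, 114 and 107 in ADM+DHT. Pnpla2 (GRCm38 chr7:141455198-141460743, plus strand) encodes adipose triglyceride lipase, and its ADM+DHT libraries were all below those of ADM, while control and DHT lay between 9.31 and 11.6 FPKM. Its DHT differences were 0.18 ± 0.064 and -1.43 ± 0.064, and its interaction was -1.60 (adjusted p = 2.46e-07). G0s2, which encodes an inhibitor of that lipase, fell by 1.14 in adipogenic medium and Abhd5, its co-activator, by 0.93. Both are from the list of lipid droplet genes, which was divided. Of its 10 members DHT raised 4 and lowered 5 in adipogenic medium, with a median difference of -0.05. Fabp5, a fatty acid carrier, rose by 0.32 in regular medium and fell by 1.33 in adipogenic medium. Lpl, lipoprotein lipase, was no member, with means of 2.66 FPKM in control, 0.588 with DHT, 144 in ADM and 32.6 in ADM+DHT. Its interaction of -0.91 was -0.14 and not called with a pseudocount of 0.1.

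Among the 15 adipogenic transcription factor members the interaction was negative for 6 and positive for 3. Pparg fell in both media, from 8.28 ± 0.719 to 5.72 ± 0.506 FPKM and from 28.1 ± 1.53 to 17.3 ± 0.879, and its interaction of -0.20 ± 0.10 was not called (adjusted p = 0.187). The FPKM of Cebpa was 8.62, 22.7 and 22.997 in the control libraries, 13.7, 14.4 and 14.7 with DHT, 86.8, 65.7 and 65.9 in ADM and 8.39, 36.0 and 8.31 in ADM+DHT. The ADM libraries of Cebpa, which encodes a factor that maintains fat cell identity, were above those of ADM+DHT, but the spread within groups was wide. Its interaction of -2.10 ± 0.68 (adjusted p = 0.0419) did not keep the call when any library but control replicates 2 and 3 and ADM+DHT replicate 2 was left out, with adjusted p over all alternatives from 0.00107 to 0.0971. Klf4, a Kruppel-like factor, fell by 0.21 in regular medium and rose by 1.13 in adipogenic medium (interaction 1.34). The glucocorticoid receptor gene Nr3c1 fell by 0.36 and 0.27, and its interaction was not called (adjusted p = 0.381).

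Genes of mitochondrial energy metabolism fell with DHT in adipogenic medium more often than in regular medium, by the tests of the interaction below. Of 74 nuclear genes for respiratory chain subunits, 56 had a called negative interaction and 0 a positive one (median -0.43). DHT raised 1 and lowered 19 of them in regular medium, with a median difference of -0.11, and raised 0 and lowered 69 in adipogenic medium, with a median of -0.55. The median level relative to control was -0.15 to -0.10 in the DHT libraries, 0.59 to 0.70 in ADM and 0.07 to 0.13 in ADM+DHT, so the ADM libraries stood above all others. The FPKM of Uqcrfs1 was 35.1, 31.7 and 33.1 in the control libraries, 33.4, 29.0 and 29.3 with DHT, 85.7, 89.6 and 90.3 in ADM and 32.6, 34.7 and 32.0 in ADM+DHT. Uqcrfs1 encodes the Rieske iron-sulfur protein of complex III, and its ADM+DHT libraries lay at the level of control. Its interaction was -1.27 ± 0.082 (adjusted p = 7.17e-07). Ndufa10, of complex I, had DHT differences of -0.05 and -0.84, and Uqcrc2, of complex III, -0.20 and -1.08.

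In the pyruvate dehydrogenase and citric acid cycle list 23 of 28 members had a called negative interaction and 0 a positive one, with a median of -0.64. The FPKM of Cs was 42.4, 42.4 and 43.5 in the control libraries, 39.6, 39.1 and 39.7 with DHT, 94.99, 100.05 and 108 in ADM and 41.6, 41.7 and 41.7 in ADM+DHT. Citrate synthase, encoded by Cs, was thus about as high in ADM+DHT as in control, and its DHT differences were -0.11 ± 0.042 and -1.26 ± 0.042. Idh3a, of isocitrate dehydrogenase, fell by 0.21 and 1.48, Dld, a subunit of the pyruvate dehydrogenase complex, by 1.04 in adipogenic medium, and Pcx, pyruvate carboxylase, by 1.42. Of the fatty acid oxidation members 16 of 22 were negative and 1, Cpt1c (chosen after its value was seen), positive, with a median of -0.70. Acadm, a medium-chain acyl-CoA dehydrogenase, rose by 0.25 in regular medium and fell by 0.82 in adipogenic medium. Pdk4, a kinase that inhibits pyruvate dehydrogenase, did the same, at 0.38 and -0.81.

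Breakdown of branched-chain amino acids had 9 of 12 members with a negative interaction (median -0.71), among them Bckdhb and Dbt of the branched-chain dehydrogenase, at -1.25 and -1.08. Peroxisome genes had 12 of 17 negative (median -0.56), with Cat, catalase, at -0.77 and Scp2, a lipid transfer protein, at -0.91. Pex2, chosen after its value was seen, was the 1 positive. Mitochondrial ribosomal proteins had 21 of 69 negative and 1 positive (median -0.17), with Mrpl12 at -0.72. The gene Ppa1, encoding a cytosolic pyrophosphatase, had the most negative interaction among falls that were larger in adipogenic medium. The FPKM of Ppa1 was 43.8, 40.6 and 45.3 in the control libraries, 36.5, 36.8 and 37.9 with DHT, 173, 186 and 193 in ADM and 54.2, 56.0 and 51.4 in ADM+DHT. ADM stood well above the other 3 groups, and the DHT differences were -0.22 and -1.75. Lrrn3, encoding a leucine-rich repeat membrane protein, also fell further in adipogenic medium, by 0.98 and 2.31. It was below 5 FPKM with DHT in both media and was a member through control and ADM, so the rule favoured both falls.

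Of the 13 mitochondrially encoded genes 12 had a called negative interaction (median -0.40), with mt-Co1 at -0.49 and mt-Nd2 at -0.51, but under quantile normalisation 3 were negative and 1, mt-Cytb, turned positive. These are among the most abundant transcripts, and their share of the FPKM sum moved with the groups as given above. With the nuclear genes of each library rescaled to the same sum, the nuclear respiratory chain list had 59 negative interactions, and under quantile normalisation also 59.

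**Figure D4:**
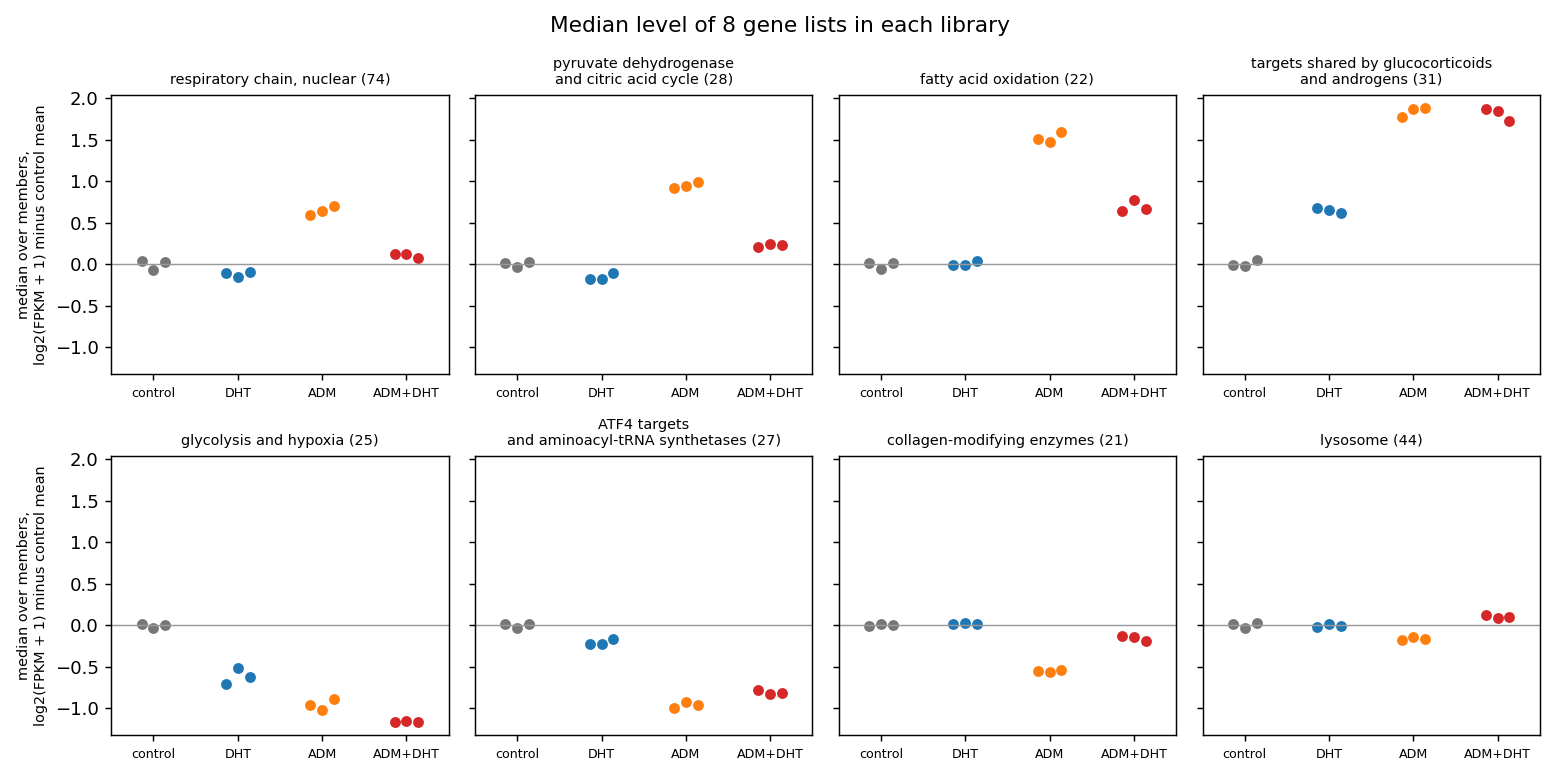
Each point is a library, at the median over a list's members of log2(FPKM + 1) minus the mean of the control libraries; the number of members is in brackets. In the first 3 panels ADM is highest and ADM+DHT lies between ADM and control, while the shared receptor targets are raised in DHT, ADM and ADM+DHT.

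Among the 6 largest positive interactions were genes that DHT lowered in regular medium, raised in adipogenic medium, or both. Of these 6 genes, Emp1, Cdsn and Hoxa7 were below 5 FPKM in ADM and were members in adipogenic medium through ADM+DHT, and Emp1 and Hoxa7 were also below it with DHT in regular medium. The FPKM of Mmp13 was 126, 111 and 128 in the control libraries, 7.16, 9.23 and 8.87 with DHT, 11.6, 14.2 and 12.4 in ADM and 13.98, 12.9 and 14.6 in ADM+DHT. Mmp13 (GRCm38 chr9:7272514-7283331, plus strand), collagenase 3, was thus high in control alone. It fell by 3.71 with DHT in regular medium, its ADM and ADM+DHT libraries overlapped, with a difference of 0.11 ± 0.095 that was not called, and the interaction was 3.82 ± 0.13 (adjusted p = 7.98e-09). The RefSeq promoter window of Mmp13 (GRCm38.p6, chr9:7272264-7272563, plus strand) is shown for its match to the AP-1 motif TGANTCA, in capitals 35 bases before the start, as AP-1 factors are well-known regulators of this gene.

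Mmp13: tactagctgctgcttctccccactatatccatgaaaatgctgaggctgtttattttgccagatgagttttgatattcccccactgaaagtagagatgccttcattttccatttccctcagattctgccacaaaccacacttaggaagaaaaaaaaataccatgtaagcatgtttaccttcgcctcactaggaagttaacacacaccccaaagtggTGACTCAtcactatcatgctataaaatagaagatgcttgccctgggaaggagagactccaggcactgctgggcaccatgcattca

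The FPKM of Timp3 was 79.5, 79.4 and 79.3 in the control libraries, 66.6, 65.2 and 69.1 with DHT, 12.3, 12.4 and 13.4 in ADM and 58.8, 62.7 and 60.4 in ADM+DHT. Timp3 (GRCm38 chr10:86300372-86349506, plus strand), which encodes a matrix-bound inhibitor of metalloproteases, was low in ADM and near the other 2 groups in ADM+DHT. Its DHT differences were -0.24 ± 0.040 and 2.17 ± 0.040, and its interaction was 2.41 (adjusted p = 4.64e-10). The FPKM of Cyp2f2 was 17.2, 14.5 and 16.0 in the control libraries, 5.28, 5.69 and 7.04 with DHT, 8.78, 7.88 and 7.66 in ADM and 24.8, 22.7 and 23.1 in ADM+DHT. Cyp2f2, a cytochrome P450 gene, therefore fell with DHT in regular medium, by 1.27, and rose in adipogenic medium, by 1.43. Cdsn, encoding the adhesion protein corneodesmosin, had means of 76.7 FPKM in control, 37.6 with DHT, 4.81 in ADM and 10.9 in ADM+DHT, with DHT differences of -1.01 and 1.02. Csrp2, encoding a LIM protein of smooth muscle, had -1.13 and 0.72.

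The FPKM of Emp1 was 37.2, 36.3 and 37.9 in the control libraries, 3.18, 3.82 and 3.13 with DHT, 1.57, 1.17 and 0.957 in ADM and 13.4, 1.32 and 1.54 in ADM+DHT. Emp1, an epithelial membrane protein gene, had the largest interaction, 4.11 ± 0.74. The rule favoured a lower level with DHT in regular medium and a higher one in adipogenic medium, so no p-value is given with it. The DHT difference of Emp1 in adipogenic medium was not called. Without ADM+DHT replicate 1 that difference was 0.13 and the interaction 3.26. Without that library its ADM+DHT mean was 1.43 FPKM, so it was a member through 1 library alone. The FPKM of Hoxa7 was 7.64, 7.42 and 6.94 in the control libraries, 2.29, 7.78 and 2.64 with DHT, 1.67, 6.598 and 1.99 in ADM and 8.85, 8.24 and 6.87 in ADM+DHT. Hoxa7, a homeobox gene, had an interaction of 2.01 ± 0.57, whose call was lost without DHT replicate 1 or 3 or ADM replicate 1 or 3. It was a member through control and ADM+DHT, so the rule favoured a positive interaction and no p-value is given with it. Tnmd, encoding the tendon membrane protein tenomodulin, led the rises that were larger in adipogenic medium. The FPKM of Tnmd was 68.3, 77.4 and 76.3 in the control libraries, 93.8, 86.7 and 95.5 with DHT, 2.70, 2.88 and 2.81 in ADM and 17.0, 14.8 and 16.4 in ADM+DHT. ADM was lowest by a wide margin and the DHT differences were 0.31 ± 0.063 and 2.17 ± 0.063. Ccl6, a chemokine gene, had differences of 0.52 and 1.78, and Adamts14, a procollagen-processing protease gene, 0.40 and 1.51. Tnmd and Adamts14 were below 5 FPKM in ADM and were members in adipogenic medium through ADM+DHT, so the rule favoured their rise there. Ccl6 was below 5 FPKM in control and was a member in regular medium through DHT, so the rule favoured its rise there. Among falls smaller in adipogenic medium were Ero1l, an oxidase of the endoplasmic reticulum, at -1.12 and -0.23, Xdh, xanthine dehydrogenase, at -1.19 and -0.43, and Thbs2, thrombospondin 2, at -1.23 and -0.53.

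Most enzymes that process collagen rose with DHT mainly in adipogenic medium. Of 21 members 14 had a called positive interaction and 0 a negative one (median 0.35). DHT raised 5 and lowered 4 of them in regular medium, with a median difference of 0.02, and raised 17 and lowered 1 in adipogenic medium, with a median of 0.37. The FPKM of Loxl1 was 102, 101 and 105 in the control libraries, 95.1, 96.4 and 97.2 with DHT, 52.0, 54.1 and 51.9 in ADM and 98.3, 91.8 and 92.0 in ADM+DHT. Loxl1, a lysyl oxidase of elastic fibres, was low in ADM, with the other 3 groups close together, and its DHT differences were -0.09 ± 0.035 and 0.82 ± 0.035 (interaction adjusted p = 1.66e-07). Lox, the lysyl oxidase that cross-links collagen, had 0.07 and 0.79, and P4ha1, a collagen prolyl hydroxylase subunit, -0.27 and 0.40.

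The collagens themselves went both ways, with 7 of 17 interactions positive and 8 negative. Col4a1 and Col4a2, the basement membrane chains encoded side by side, rose by 1.20 and 0.94 in regular medium and by 0.18 and 0.18 in adipogenic medium. Col8a1 fell by 1.07 and rose by 0.29. Col1a1 and Col1a2, the chains of type I collagen and named here as stromal markers, rose by 0.52 and 0.57 in adipogenic medium, with differences of 0.08 (not called) and 0.12 in regular medium. Matrix glycoproteins and proteoglycans were divided as well, 13 positive and 11 negative of 38. The FPKM of Postn was 51.4, 53.1 and 51.6 in the control libraries, 362, 373 and 364 with DHT, 161, 158 and 153 in ADM and 347, 332 and 337 in ADM+DHT. Postn (GRCm38 chr3:54361109-54391037, plus strand), periostin, reached much the same level with DHT in either medium from different starting levels. Its DHT differences were 2.79 ± 0.030 and 1.10 ± 0.030, and its interaction was -1.69 (adjusted p = 5.75e-10). The FPKM of Spp1 was 782, 716 and 757 in the control libraries, 290.1, 306 and 283 with DHT, 349, 358 and 336 in ADM and 414, 414 and 422 in ADM+DHT. Spp1, osteopontin, was highest in control, fell by 1.36 and rose by 0.26. The FPKM of Igfbp5 was 525, 519 and 538 in the control libraries, 376, 389.9 and 374 with DHT, 88.5, 92.0 and 89.7 in ADM and 173, 176 and 179 in ADM+DHT. Igfbp5, a binding protein of insulin-like growth factors, likewise fell by 0.47 and rose by 0.96, staying lower in ADM+DHT than in either group in regular medium.

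Matrix proteases and their inhibitors had 15 of 25 members with a positive interaction and 4 with a negative one (median 0.38). Mmp11, stromelysin 3, had DHT differences of -0.51 and 0.92. The negative ones included Adam12, Adamts1 and Adamts12, named after their values were seen, and their count was 2 under quantile normalisation and without control replicate 3, ADM replicate 2, or ADM+DHT replicate 1 or 2. Osteoblast genes had 9 positive and 2 negative of 19, the negative ones being Postn and Enpp1. Runx2, the master regulator of osteoblasts, had means of 5.30 FPKM in control, 4.70 with DHT, 4.39 in ADM and 5.45 in ADM+DHT. Its interaction was 0.40 ± 0.099. Without control replicate 3 its control mean was 4.96 FPKM and under the limit. Runx2 was below 5 FPKM with DHT and in ADM, and was a member through control and ADM+DHT. The rule thus favoured a positive interaction, so no p-value is given with it. Cdh11, a cadherin of mesenchymal cells, had DHT differences of 0.06 and 0.82.

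Most glycolysis and hypoxia genes fell with DHT in regular medium, and fewer did in adipogenic medium, where their median level relative to control was already -1.02 to -0.89 in the ADM libraries. The interaction was positive for 17 of 25 members and negative for 1, Bnip3 (chosen after its value was seen), with a median of 0.39. DHT raised 1 and lowered 21 of them in regular medium, with a median difference of -0.64, and raised 6 and lowered 14 in adipogenic medium, with a median of -0.23. The FPKM of Pkm was 167, 147 and 151 in the control libraries, 93.4, 96.0 and 105 with DHT, 54.2, 57.9 and 56.5 in ADM and 62.8, 63.1 and 60.2 in ADM+DHT. Pkm, pyruvate kinase, fell by 0.65 in regular medium, with a difference of 0.14 in adipogenic medium that was not called. Ero1l, induced by hypoxia, was lowest in ADM+DHT, at 6.44 ± 0.224 FPKM.

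Targets of ATF4, a factor of the amino acid stress response, and aminoacyl-tRNA synthetases had 16 of 27 interactions positive and 2 negative, those of Cebpg and Ddit4 (both chosen after their values were seen), with a median of 0.40. DHT raised 3 and lowered 15 of them in regular medium, with a median difference of -0.19, and raised 17 and lowered 1 in adipogenic medium, with a median of 0.25. The FPKM of Trib3 was 23.5, 20.1 and 23.6 in the control libraries, 13.8, 11.6 and 13.2 with DHT, 1.79, 2.04 and 2.31 in ADM and 5.48, 5.83 and 3.95 in ADM+DHT. Trib3, a pseudokinase gene induced by ATF4, fell with DHT in regular medium and rose with it in adipogenic medium, where its level stayed below that of both other groups (DHT differences -0.76 ± 0.12 and 0.99 ± 0.12). It was a member in adipogenic medium through ADM+DHT alone, and not without ADM+DHT replicate 1 or 2. Atf5 had -0.40 and 0.29, and Nars, an asparaginyl-tRNA synthetase, -0.44 and 0.13. Ddit3, a stress factor counted among the unfolded protein response genes, had -0.18 and 0.50. Of that list of 25 members 5 were positive and 2, Dnajb9 and Xbp1, negative, a share near the 28.5% of all members with a called interaction.

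Interferon-stimulated genes were lowered by DHT mainly in regular medium. The interaction was positive for 11 of 19 members and negative for Ifi27 and Samhd1 (chosen after their values were seen), with a median of 0.36; the positive count fell to 6 when control replicate 1, DHT replicate 2 or ADM+DHT replicate 2 was left out and to 7 without control replicate 2 or DHT replicate 3. DHT raised 1 and lowered 13 of them in regular medium, with a median difference of -0.39, and raised 5 and lowered 3 in adipogenic medium, with a median of -0.13. The FPKM of Ifit3 was 42.2, 44.3 and 37.2 in the control libraries, 20.3, 18.2 and 19.7 with DHT, 5.50, 5.30 and 7.06 in ADM and 8.13, 8.45 and 7.45 in ADM+DHT. Ifit3, an antiviral effector, fell by 1.05 and rose by 0.38, from a much lower level. Irgm1, an interferon-inducible GTPase, had differences of -0.72 and 0.78, and Ifitm3, a membrane protein that blocks virus entry, -0.45 and 0.53. The summed macrophage and haematopoietic markers given above were also highest in control, and their part in this was not tested. Of 9 members for MHC class I and the immunoproteasome 2, H2-D1 and H2-T22, had called positive interactions, beside 28.5% of all members called in either direction. These 2 genes belong to a multigene family whose reads could be shared. The call of H2-D1 was lost without control replicate 3, DHT replicate 2 or 3, ADM replicate 1 or 2, or ADM+DHT replicate 1, at adjusted p from 0.0625 to 0.0709.

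Most lysosomal genes rose with DHT in adipogenic medium. The interaction was positive for 21 of 44 members and negative for 1, Ctsf (chosen after its value was seen), with a median of 0.25; the negative call was lost without control replicate 1 or 2, DHT replicate 3, ADM replicate 1 or 2, or ADM+DHT replicate 2 or 3. DHT raised 11 and lowered 5 of them in regular medium, with a median difference of -0.03, and raised 28 and lowered 1 in adipogenic medium, with a median of 0.25. The FPKM of Hexa was 112, 107 and 115 in the control libraries, 112, 121 and 111 with DHT, 72.3, 73.9 and 76.7 in ADM and 120.2, 117 and 119 in ADM+DHT. Hexa, a subunit of the hexosaminidase that breaks down gangliosides, was lowest in ADM, and its DHT differences were 0.04 ± 0.042 and 0.67 ± 0.042 (interaction adjusted p = 1.45e-05). Ctsk, cathepsin K, rose in both, by 0.25 and 0.88. Cytosolic ribosomal protein genes had 17 of 78 interactions positive and 0 negative, at a median of 0.09, with 12 to 22 positive under the other scalings, 1 negative under quantile normalisation, and 11 positive without DHT replicate 2 or ADM+DHT replicate 1. DHT lowered 33 of them in regular medium. Rpl23 had DHT differences of -0.23 and 0.24. DNA replication genes had 7 of 17 positive and 1 negative, and DHT lowered 13 in regular medium, but 8 with the nuclear genes rescaled. Mcm6, of the replicative helicase, had -0.39 and -0.01. Of 8 mitosis members 1, Cenpm, of the centromere, had a called interaction (-0.48), which was lost without control replicate 2 or 3, ADM replicate 1 or 3, or ADM+DHT replicate 1 or 3, at adjusted p from 0.0547 to 0.0682, and with a pseudocount of 3, at -0.30 and an adjusted p of 0.0979. Cenpm was below 5 FPKM in ADM+DHT and was a member in adipogenic medium through ADM, so the rule favoured its fall there. Without ADM replicate 1 or 3 it was below 5 FPKM in ADM as well. Cdk1, the mitotic kinase, was no member, with means of 17.9 FPKM in control, 13.7 with DHT, 3.59 in ADM and 2.24 in ADM+DHT.

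**Figure D5:**
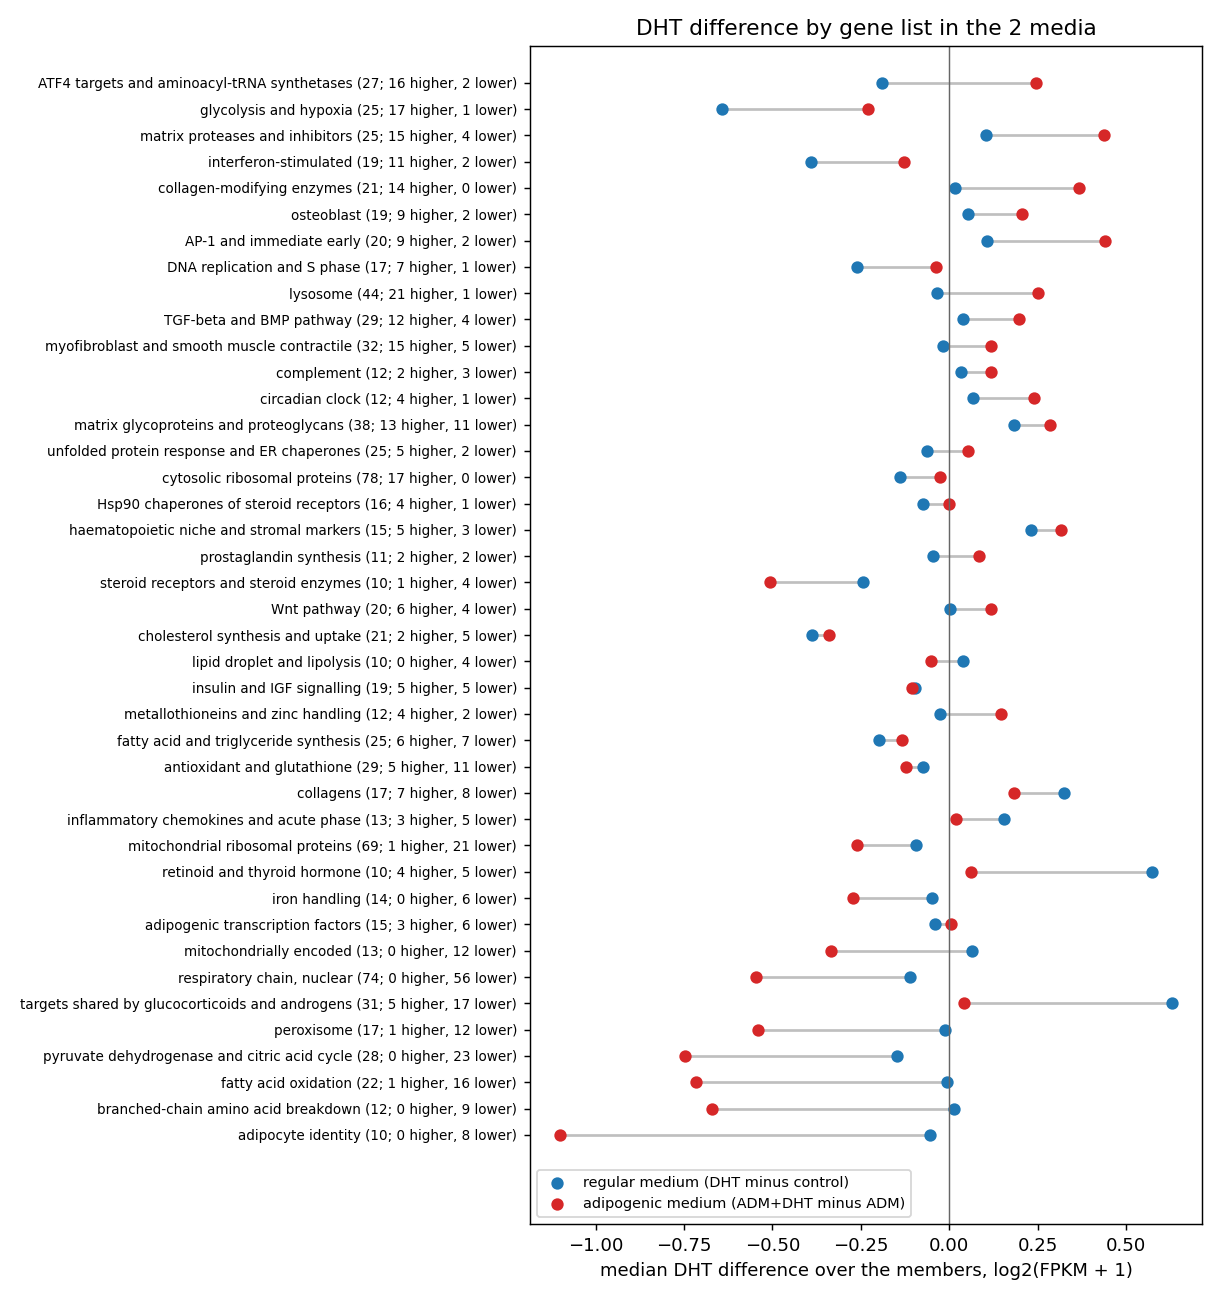
For each list with at least 10 members, the median DHT difference over the members in regular medium (blue) and adipogenic medium (red), on the log2(FPKM + 1) scale, ordered by the median interaction. Brackets give the number of members and of called interactions. The lists at the bottom, of fat cell and mitochondrial genes, are lowered in adipogenic medium.

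Signalling genes were mixed; genes given in brackets from here on are the members behind a count, chosen after their values were seen unless the rule names them. AP-1 and immediate early genes had 9 positive and 2 negative (Klf6 and Zfp36) of 20, with a median of 0.28. Phlda1 was raised by 0.77 and 1.41 and Ccnd1, cyclin D1, by 0.51 in adipogenic medium alone. TGF-beta and BMP genes had 12 positive and 4 negative (among them Fst, Fstl1 and Tgfbr3) of 29, with a median of 0.19. The ligand gene Tgfb3 rose by 0.34 and 0.83, the latent binding protein gene Ltbp1 by 0.18 and 0.90, and the BMP antagonist gene Nbl1 by 0.99 in adipogenic medium, with 0.04 in regular medium. Wnt genes had 6 positive and 4 negative (Fzd7, Lrp5, Ror1 and Tcf7l1) of 20, with a median of -0.02. The FPKM of Rspo3 was 100.3, 102 and 102 in the control libraries, 42.6, 40.4 and 45.8 with DHT, 38.7, 37.8 and 35.4 in ADM and 40.5, 45.6 and 41.0 in ADM+DHT. Rspo3, an enhancer of Wnt signals, was thus high in control alone, with DHT differences of -1.23 ± 0.056 and 0.18 ± 0.056. Wisp2 rose by 0.93 and 1.59.

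Insulin and insulin-like growth factor genes had 5 positive (Igf1, Igfbp4, Igfbp5, Slc2a1 and Trib3) and 5 negative (Foxo3, Igfbp7, Pdpk1, Socs2 and Socs3) of 19, with a median of -0.06. The FPKM of Igf1 was 166, 175 and 159.9 in the control libraries, 88.5, 92.6 and 89.6 with DHT, 45.6, 44.6 and 42.5 in ADM and 57.1, 55.3 and 56.9 in ADM+DHT. Igf1, the growth factor itself, fell by 0.88 and rose by 0.35, and its ADM+DHT level stayed below that of DHT in regular medium. Igfbp7 went the other way, at 0.83 and -0.22. Contractile genes had 15 positive and 5 negative (Actn1, Fhl2, Lmod1, Srf and Vcl) of 32, with a median of 0.16. The negative count was 3 without any 1 of the control libraries, DHT replicate 3, ADM replicate 2, or ADM+DHT replicate 1 or 2. Actn1 and Fhl2 were raised in regular medium alone, by 0.42 and 0.52. Niche and stromal markers had 5 positive (Igf1, Ly6a, Pdgfrb, Spp1 and Vcam1) and 3 negative (Angpt1, Ebf3 and Kitl) of 15, with a median of 0.06. The FPKM of Vcam1 was 20.2, 21.2 and 20.3 in the control libraries, 26.7, 26.6 and 27.2 with DHT, 39.7, 39.7 and 40.6 in ADM and 91.3, 93.0 and 92.9 in ADM+DHT. Vcam1, an adhesion molecule that retains blood cell precursors, rose in both media and more so in adipogenic medium, by 0.37 ± 0.032 and 1.19 ± 0.032. Cxcl12, the chemokine that holds them in the marrow, rose by 0.52 and 0.69, and its interaction of 0.17 ± 0.098 was not called (adjusted p = 0.233).

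Antioxidant and glutathione genes had 5 positive (Gclc, Gsta4, Gstm2, Prdx4 and Srxn1) and 11 negative of 29, with a median of -0.10; the negative count fell to 6 or 7 without control replicate 1 or 2, DHT replicate 1 or 3, ADM replicate 2 or 3, or ADM+DHT replicate 3. Txnip, an inhibitor of thioredoxin, rose by 1.20 in regular medium and fell by 0.60 in adipogenic medium, and the mitochondrial enzymes Prdx3 and Sod2 fell by 1.18 and 0.68 in adipogenic medium. Iron handling genes had 0 positive and 6 negative of 14, with Cp, ceruloplasmin, at 0.95 and -0.48. Cp and Slc39a14, both on this list, were below 5 FPKM in control and were members in regular medium through DHT, so the rule favoured their rise there. Cholesterol genes had 2 positive (Sqle and Srebf2) and 5 negative (Abca1, Acat2, Cyp51, Hmgcs1 and Nsdhl) of 21. Abca1 was below 5 FPKM in control and was a member in regular medium through DHT, so the rule favoured its rise there. DHT lowered 14 of the 21 in regular and 11 in adipogenic medium. Cyp51, a demethylase of the pathway, fell in both, by 0.65 and 1.38. Fatty acid and triglyceride synthesis had 6 positive and 7 negative of 25, with Acaca, acetyl-CoA carboxylase, at -0.76 and Hacd2, of very long chain synthesis, at -0.98. Clock genes had 4 positive (Bhlhe40, Bhlhe41, Dbp and Nr1d2) and 1 negative (Per1) of 12, with Dbp raised by 0.74 in adipogenic medium alone. Dbp was below 5 FPKM in ADM and was a member in adipogenic medium through ADM+DHT, so the rule favoured that rise.

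Retinoid and thyroid hormone genes had 4 positive (among them Klf9, Rara and Rarg) and 5 negative (Aldh1a1, Aldh1a7, Dhrs3, Rxra and Thra) of 10, with Thra, a thyroid hormone receptor, raised by 0.76 in regular medium alone. Complement genes had 2 positive (C1ra and Colec12) and 3 negative (C1s1, C3 and C4b) of 12: C3 fell in both media, by 0.49 and 1.42. Chemokine and acute phase genes had 3 positive (Ccl7, Ccl9 and Ptx3) and 5 negative (C3, Hp, Nfkbia, Ptges and Steap4) of 13, prostaglandin genes 2 positive (Ephx1 and Ptgfr) and 2 negative (Cbr1 and Ptges) of 11, metallothionein and zinc genes 4 positive (Slc30a4, Slc39a1, Slc39a6 and Slc39a7) and 2 negative (Mt2 and Slc39a14) of 12, and steroid receptors and enzymes 1 positive (Dhrs9) and 4 negative (among them Hsd17b10, Hsd17b12 and Hsd17b4) of 10. For Slc39a14, below 5 FPKM in control and a member in regular medium through DHT, the rule favoured the rise there. Lipid droplet genes had 0 positive and 4 negative (Abhd5, G0s2, Plin2 and Pnpla2) of 10 and fatty acid uptake genes 1 positive (Lrp1) and 3 negative (Dbi, Fabp5 and Got2) of 6. The Hsp90 chaperones had 4 positive (Cdc37, Dnaja1, Hsph1 and Stub1) and 1 negative (Fkbp5) of 16, but 2 positive and 3 negative under quantile normalisation, 3 negative with the nuclear genes rescaled, 2 negative without control replicate 1 or 3, and 1 positive without DHT replicate 1. Other small counts also rested on single libraries: the 6 positive interactions of fatty acid and triglyceride synthesis became 3 without control replicate 3, the 2 positive ones of cholesterol genes 1 without control replicate 1, DHT replicate 2, ADM replicate 1 or any 1 of the ADM+DHT libraries, and the 5 positive ones of the unfolded protein response 3 without DHT replicate 1, ADM replicate 1 or ADM+DHT replicate 3. The single positive call of the steroid list, Dhrs9, was lost without control replicate 1 or 2, DHT replicate 2, ADM replicate 1 or 2, or ADM+DHT replicate 1 or 3. In either direction the interaction was called for 5 of 16 Hsp90 chaperones and 4 of 11 prostaglandin genes, beside 28.5% of all members.

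Among genes with exactly 1 RefSeq promoter window of 300 bases, the hexamer AGAACA or its reverse complement occurred in 19.4% of all 22862 windows and in 433 of 4067 (10.6%) of the members that matched. It occurred in 5 of 53 (9.43%) of members that rose in regular and fell in adipogenic medium, in 5 of 50 (10.0%) of those whose rise was smaller in adipogenic medium, and in 13 of 76 (17.1%) of those whose rise was larger. TGANTCA, on either strand, occurred in 7.98% of all windows and in 168 of 4067 (4.13%) of the members. It occurred in 8 of 105 (7.62%) of those that fell in regular and rose in adipogenic medium, and in 9.43% of the reverse class. Rises larger in adipogenic medium had it in 9.21%. Members with a called interaction that were changed in regular medium alone, the class of Mmp13, had it in 4.44%. In the other classes the share ran from 2.53% (falls larger in adipogenic medium) to 14.7% (changed in neither medium). These matches are descriptions of the letters in a short window.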

How the data were processed

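Per the labels' protocols, poly(A)+ RNA was turned into stranded KAPA libraries and sequenced in pairs on an Illumina instrument. FastQC, cutadapt, HISAT2, StringTie and the build GRCm38 are listed in the submitters' processing notes; versions are not given in the sources used here, nor is whether fragments were assigned by strand, so overlapping antisense genes cannot be told apart. The 4 deposited tables hold FPKM per library, made by the authors. Libraries present in more than 1 of them carry identical values in each. Joining on the gene identifier gave 12028 genes, of which 11582 have values in all libraries. On the values, each gene's larger group mean is 0.5002 FPKM or more. A misspelt sample title was read as ADM+DHT replicate 2, which its treatment label supports. Whole reads could not be recovered from steps in the FPKM, by ratios of 300 low genes between replicates 1 and 2 of each group. At most 22.3% of these ratios lay within 0.01, in natural log, of a ratio of small whole numbers times 1 constant. Depth is therefore unknown and no counting intervals are given.

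Values were transformed to log2(FPKM + 1), and the 11152 genes averaging 1 FPKM or more in any group were fitted with limma 3.58.1 in R 4.3.3 (a group means model on all 12 libraries, 8 residual degrees of freedom, variances moderated along an intensity trend). The interaction and both DHT differences are contrasts of this fit. Tests were two-sided and the Benjamini-Hochberg adjustment ran over the whole set of tested genes, and "rose", "fell" and "changed" mean an adjusted p below 0.05. Fold changes on the log2(FPKM + 1) scale understate those of low genes. Errors of means are SD and of differences SE. The fit was checked on simulated data. The members, the 48 gene lists and the motifs were chosen with earlier results of these data known. The rule for named genes takes the 6 largest interactions of each sign, the 4 largest of each sign among opposite responses, the 3 largest in each class of same-direction responses, per list up to 3 members, taken by smallest adjusted p, and always a short list that includes Nr3c1, Fkbp5, Pparg, Cebpa, Lpl, Cxcl12, Runx2 and Cdk1; some genes are not reported here. Alternatives were other pseudocounts (0.1 and 3), filters, variance models, scalings, a replicate block, other member thresholds and leaving out each library. Promoter sequences are from RefSeq (GRCm38.p6), with 4067 of 6489 members matched by symbol to exactly 1 window. Promoter scans and plots used Python 3.11.15, pandas 2.3.3, numpy 2.4.6 and matplotlib 3.10.9.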

Additional observations from a re-analysis of the deposited data

Results flagged for a closer look

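DHT differed in effect between the 2 media, by the interaction test, for 1847 members. Of these, 175 rose in adipogenic medium and fell in regular medium, and 96 did the reverse.

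The 6 most positive interactions, on the log2(FPKM + 1) scale, were those of Emp1 (4.11), Mmp13 (3.82), Cyp2f2 (2.71), Timp3 (2.41), Cdsn (2.03) and Hoxa7 (2.01). The 6 most negative were those of Sult1a1 (-3.54), Map7d2 (-2.96), Aldh1a7 (-2.94), Fam107a (-2.68), Fkbp5 (-2.59) and Ctla2a (-2.47). The 6 most negative genes were all below 5 FPKM in control, so the rule favoured their rise in regular medium. Emp1, Cdsn and Hoxa7 were below 5 FPKM in ADM, so the rule favoured a higher level with DHT in adipogenic medium. Emp1 and Hoxa7 were also below it with DHT in regular medium, so the rule favoured their lower level there. Levels or DHT differences of all the genes named here stand in the report, and the cause of each difference was not tested.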

How the results depend on the processing

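With members defined at 20 FPKM in place of 5, 839 interactions were called (493 positive and 346 negative), and 873 and 1126 DHT differences in regular and adipogenic medium. At 1 FPKM, 2584 interactions were called (1286 positive and 1298 negative), and 3009 and 3680 DHT differences in regular and adipogenic medium. The numbers of members at these thresholds are not given here, so these counts stand without shares. Other pseudocounts, filters, variance models and scalings gave 1718 to 1905 called interactions. Leaving out 1 library at a time gave 1649 to 1810 (835 to 964 positive and 795 to 846 negative), with 1672 to 2085 DHT differences in regular and 2296 to 2654 in adipogenic medium. The cause of these shifts was not tested, beyond the changed number of members or libraries. Of the 139 named genes, 9 lost the call of the interaction under an alternative (among them Cebpa, Cenpm, Dnaja1, H2-D1, Hoxa7, Lpl, mt-Co1 and mt-Nd2). Under quantile normalisation the interaction of mt-Cytb turned from -0.37 to 0.13 and its DHT difference in adipogenic medium from -0.28 to 0.13.

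Replicate numbers did not pair the libraries: deviations of same-numbered libraries correlated at -0.139 to 0.139, and 4 of 12 libraries correlated best with their own number. With the number as a replicate block, 1808 interactions were called (949 positive). FPKM give no depth, so the precision of low genes rests on 3 libraries a group, described as biological triplicates. Regular medium is not described further, so its differences from adipogenic medium besides insulin, dexamethasone and rosiglitazone are not known.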
